A study of Drosophila melanogaster with 6 samples.

Results

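Many protein-coding genes of Drosophila melanogaster have no name beyond CG and a number, the label given to a computed gene when the genome was annotated. Among them, 81 are described here whose RNA differed at least 4-fold between exercised and control larvae, out of 6015 genes with a CG symbol and 17477 genes in the count table. Of the 81 genes, 59 were higher and 22 were lower in exercised larvae. A member had to hold at least 4 counts summed over each group and a mean of at least 1 CPM (a count scaled to a library total of 1000000) over the 6 libraries. The group means had to differ at least 4-fold, and the CPM ranges of the groups could not overlap. CG genes with these counts and this mean numbered 2687, so the members made up 3.01% of them. Of 95 that differed at least 4-fold, 14 were left out because the ranges overlapped, and another 6 CG genes were left out only for having under 4 counts in a group (CG12715, CG12990, CG13032, CG15711, CG31029 and CG34256). Ranges did not overlap in 38.6% of all 9127 genes tested. Without the condition on the symbol, the same rule held for 2.01% of 8460 genes. Since these values chose the members, their differences are given as a description, with no test.

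The exercised larvae were OK6-Gal4bc/+; UAS-CsChrimbc/+. OK6-Gal4 drives expression in motor neurons, and also in a subset of CCAP neurons, and CsChrim is a channelrhodopsin that depolarizes a neuron under red light, so that a light pulse contracts the body wall muscles. The control larvae were w1118, the strain to which both transgenic lines had been backcrossed, and carried neither transgene. Both groups were of mixed sex and at the middle of the third instar, had been kept overnight on food with all-trans retinal, the cofactor of the channel, and received the same 2 h of light. Exercise and genotype therefore cannot be told apart here. Each group had 3 libraries of polyadenylated RNA from dissected body wall preparations, which hold muscle, cuticle and what adheres to them, so fewer cells of a type and less RNA per cell cannot be told apart. The groups were compared to find transcripts that change with an acute bout of contraction.

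Library totals ranged from 19625425 to 22063283 counts in exercised larvae and from 20485254 to 23953341 in control larvae. The members took 0.357 to 0.472% of the counts in exercised libraries and 0.218 to 0.244% in control libraries. Muscle markers (9 of the 10 listed were in the table) summed to 136837 to 146986 CPM in exercised libraries and 141912 to 149152 CPM in control libraries. Midgut markers summed to at most 6.90 CPM in exercised and 8.30 CPM in control libraries. The 6 fat body markers summed to 4276, 3949 and 3302 CPM in exercised replicates 1 to 3, against 561, 435 and 3517 CPM in control replicates 1 to 3, so by this sum, mostly Lsp1beta and Lsp1alpha, control 3 lay with the exercised libraries. This did not hold for every marker: Fbp1 was at 1.65, 6.42 and 8.79 CPM in exercised libraries, against 0.0417, 0 and 0.0890 CPM in control libraries, and Lsp2 was at 11.1 CPM in control 3, below its lowest exercised value of 20.9 CPM. The white gene w, mutant in w1118 and carried by many transgenes, was at 114, 40.3 and 98.0 CPM in exercised libraries and at most 0.0835 CPM in control libraries. The male dosage compensation RNA roX1 was at 55.5, 3.97 and 4.62 CPM in exercised libraries and at 163, 167 and 77.4 CPM in control libraries. The part of adhering fat body and of the sexes in the differences below was not tested.

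Of the 81 members, 78 held enough counts for the fit across all genes (edgeR's quasi-likelihood test with Benjamini-Hochberg adjustment). It called 50 of them higher and 19 lower. Over all 9127 genes it called 936 higher (10.3%) and 778 lower (8.52%), or 18.8% in all. Upper-quartile scaling turned the split over all genes to 773 higher and 1003 lower. Without exercised 3 the calls over all genes were 469 higher and 358 lower, and without control 2 they were 553 higher and 477 lower. The members were chosen on the same contrast, so nothing is read from their count. The median fold was 7.66 for the higher members and 8.63 (control over exercised) for the lower ones. In 30 of the 59 higher members even the lowest exercised library lay at least 4-fold above the highest control library, and this ratio ran from 1.08 to 18.6 with a median of 4.13. In 8 of the 22 lower members the lowest control library lay at least 4-fold above the highest exercised library (1.33 to 27.3, median 3.24).

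**Figure D1:**
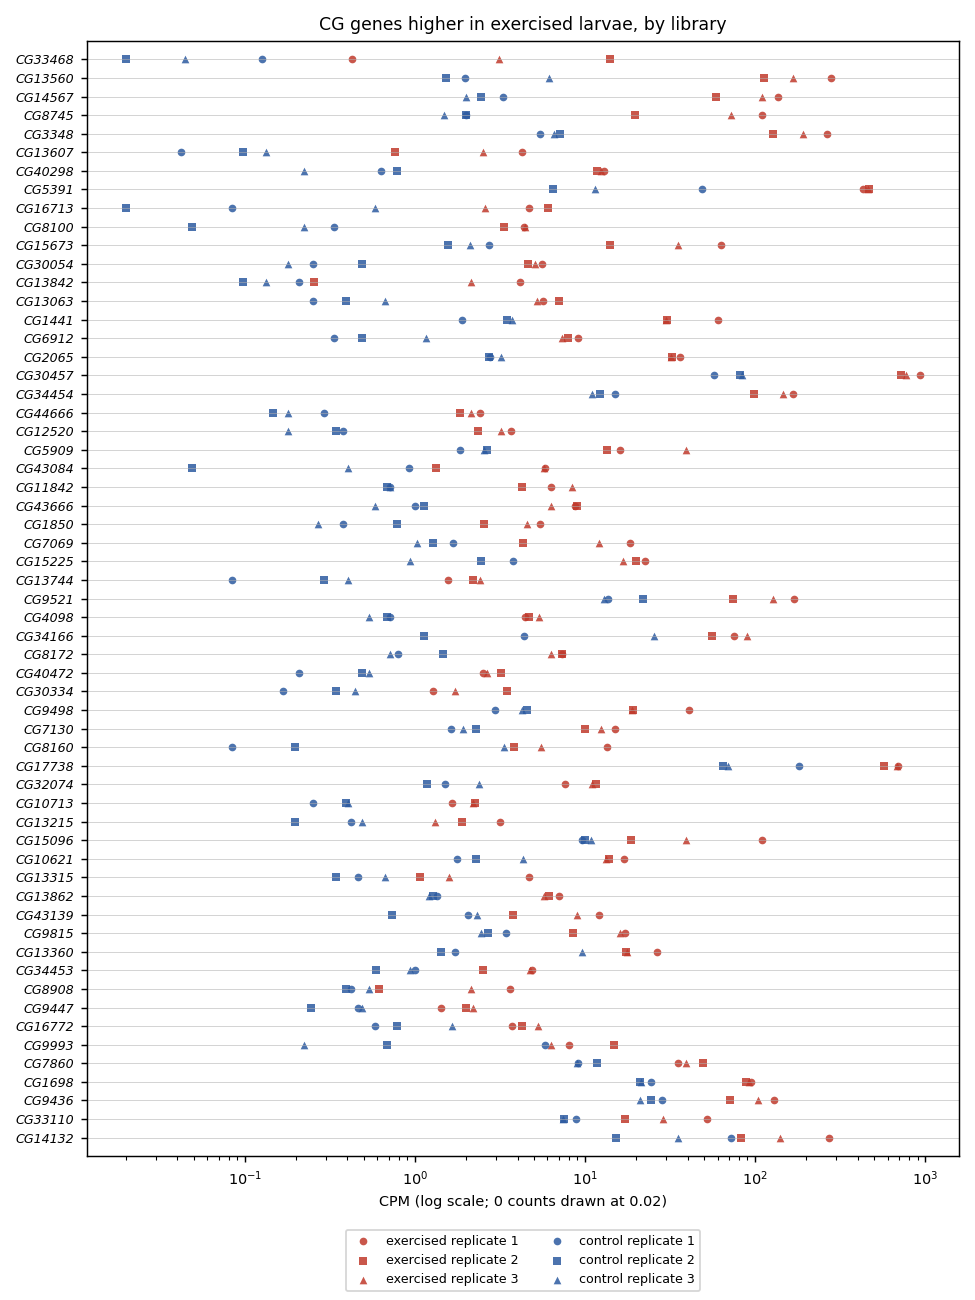
CPM of the 59 higher members in each library, 1 row per gene in order of fold, on a log axis. Red symbols are the 3 exercised libraries and blue symbols the 3 control libraries, and a library with 0 counts is drawn at 0.02. The colors do not overlap in any row, since the rule required it, but the distance between them ranges from 1.08-fold to 18.6-fold.

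For 47 of the 81 members no role is given here, and 32 of these were higher. Some of them were among the steepest and most abundant. CG13560 was at 279.9, 113 and 166 CPM in exercised libraries, against 1.96, 1.51 and 6.10 CPM in control libraries, a 58.4-fold difference that was 107-fold without control 3 (edgeR log2 fold change 5.89, standard error, SE, 0.74). Every exercised library stood above 100 CPM and every control library below 10, and control 3 was the highest control. CG14567 was at 137, 58.8 and 109 CPM in exercised libraries, against 3.30, 2.44 and 2.00 CPM in control libraries (39.4-fold). CG5391 was at 432, 467 and 463 CPM in exercised libraries, close together, against 48.8, 6.44 and 11.4 CPM in control libraries. Its fold of 20.4 depended on control 1, which was above both other controls, and was 50.9 without it. CG30457 was at 927, 716 and 767 CPM in exercised libraries and 57.2, 81.4 and 83.6 CPM in control libraries (10.8-fold). CG17738 was at 686, 573 and 681 CPM in exercised libraries and 182, 64.6 and 69.5 CPM in control libraries (6.14-fold, and 9.65-fold without control 1).

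Per kilobase of exon, CG17738 was the most abundant member in exercised larvae, at a mean of 1574 CPM, followed by CG30457 at 1244 and CG5391 at 580. On this scale the same genes were at 256, 115 and 28.4 CPM per kilobase in control larvae. The exercised ranges of CG17738 and CG30457 overlapped per kilobase, and both stood above CG5391. A further gene without a role, CG40298, was steady within the exercised group, at 12.9, 11.7 and 12.4 CPM against 0.626, 0.781 and 0.222 CPM in control libraries (22.7-fold).

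The largest ratio rested on few control counts. CG33468 was at 0.425, 14.1 and 3.13 CPM in exercised libraries and at 0.125, 0 and 0.0445 CPM in control libraries, 354 counts against 4. From the summed counts the ratio was 94.2 (95% exact interval 36.5 to 348, which covers counting error only), and the ratio of mean CPM was 104, or 31.4 without exercised 2 and 263.9 without control 1. Exercised 1 was 33.1-fold below exercised 2, and the gene was too sparse for the edgeR fit. CG13607 had 160 counts in exercised against 6 in control libraries, a ratio of 28.4 (12.8 to 78.5), and the ratio of mean CPM was 27.5, or 17.9 without exercised 1. Its exercised 2 value was 0.764 CPM, against 4.25 and 2.49 CPM in the other exercised libraries, all above the highest control at 0.133 CPM.

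The remaining higher members without a role and without a neighbouring member were CG15673, CG13842, CG13063, CG6912, CG12520, CG43084, CG1850, CG34166, CG30334, CG8160, CG32074, CG10713, CG13215, CG13315, CG43139, CG9815, CG9447 and CG16772. Their folds ran between 4.39 (CG16772) and 17.6 (CG15673). CG34166 was the most abundant of these, at 74.5, 55.3 and 89.1 CPM in exercised libraries against 4.34, 1.12 and 25.5 CPM in control libraries, where control 3 stood apart. CG13842, too sparse for the fit, had 140 counts in exercised against 10 in control libraries, and its exercised 2 value of 0.255 CPM was barely above the highest control value of 0.209 CPM.

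Enzymes of small-molecule metabolism formed the largest group with a role, with 9 members higher and 1 lower. CG8745, a class III aminotransferase, was at 109, 19.6 and 72.3 CPM in exercised libraries, against 2.00, 2.00 and 1.47 CPM in control libraries (36.8-fold). The exercised libraries differed 5.59-fold among themselves, and the lowest was still several times the highest control. CG2065, a short-chain dehydrogenase, was among the steadiest, at 35.9, 32.6 and 32.0 CPM in exercised libraries against 2.76, 2.73 and 3.20 CPM in control libraries (11.6-fold, SE of the log2 fold change 0.12). CG9521, a glucose-methanol-choline oxidoreductase, was at 169, 74.1 and 127 CPM in exercised libraries and 13.6, 21.8 and 12.8 CPM in control libraries (7.66-fold). CG7069, of the pyruvate kinase family, was at 18.3, 4.28 and 12.1 CPM in exercised libraries and 1.67, 1.27 and 1.02 CPM in control libraries (8.75-fold). The aminotransferase, the oxidoreductase and the kinase all had their lowest exercised value in replicate 2.

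CG9436, an aldo-keto reductase that reduces aldehydes and ketones, averaged 101 ± 28.7 CPM in exercised and 24.6 ± 3.65 CPM in control larvae (mean ± SD, n = 3 each; 4.11-fold). CG7860, asparaginase-like, averaged 41.2 ± 7.14 CPM in exercised and 9.92 ± 1.51 CPM in control larvae (4.15-fold). CG10621, a homocysteine S-methyltransferase that makes methionine, averaged 14.6 ± 1.97 CPM in exercised and 2.79 ± 1.35 CPM in control larvae (5.25-fold). The others were low: CG4098, related to the ADP-ribose pyrophosphatase NUDT9, averaged 4.83 ± 0.469 CPM in exercised and 0.642 ± 0.0948 CPM in control larvae. CG40472, which carries the synonym of the complex I subunit NDUFB2, averaged 2.78 ± 0.377 CPM in exercised and 0.410 ± 0.176 CPM in control larvae. A close relative of such a gene could have shared its reads, so its level is uncertain. The enzyme that was lower was CG10365, with the synonym Chac1, a gamma-glutamylcyclotransferase that breaks down glutathione. It was at 14.7, 23.1 and 16.4 CPM in exercised libraries and 61.4, 82.0 and 101 CPM in control libraries, a 4.52-fold difference. The lowest control was 2.66-fold above the highest exercised library, while neither group spread more than 1.65-fold.

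Of 5 genes of lipid and membrane metabolism, 3 were higher and 2 lower. CG1441, a fatty acyl-CoA reductase that makes fatty alcohols, was at 60.4, 30.1 and 29.9 CPM in exercised libraries against 1.88, 3.47 and 3.69 CPM in control libraries (13.3-fold). CG33110, a fatty acid elongase, was at 51.8, 17.2 and 28.6 CPM in exercised libraries and 8.85, 7.47 and 7.43 CPM in control libraries (4.11-fold). Both stood highest in exercised 1. CG9993, an acyl-CoA ligase, was at 8.03, 14.7 and 6.25 CPM in exercised libraries and 5.80, 0.683 and 0.222 CPM in control libraries, so that control 1 came within 1.08-fold of the lowest exercised library. Its fold was 4.32 with all libraries and 21.3 without control 1. The lower ones were CG18135, a glycerophosphocholine phosphodiesterase that hydrolyses a breakdown product of phosphatidylcholine, and CG11437, of the lipid phosphate phosphatase family. CG18135 was at 19.4, 32.7 and 21.3 CPM in exercised libraries against 121, 112 and 145 CPM in control libraries (5.15-fold lower). CG11437 was at 0.520, 1.02 and 0.906 CPM in exercised libraries against 7.64, 6.93 and 7.61 CPM in control libraries (9.07-fold lower). In both, every control library lay more than 3-fold above every exercised library.

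Serine proteases and their inhibitors act in hemolymph, where clip-domain proteases form cascades, and in digestion. Here 5 were higher and 1 lower. CG5909 was at 16.1, 13.3 and 39.1 CPM in exercised libraries and 1.84, 2.64 and 2.54 CPM in control libraries (9.78-fold, and 6.30-fold without exercised 3). CG11842 was at 6.33, 4.23 and 8.34 CPM in exercised libraries and 0.710, 0.683 and 0.712 CPM in control libraries (8.98-fold). CG8172 averaged 6.97 ± 0.580 CPM in exercised and 0.990 ± 0.413 CPM in control larvae. CG13744, beside it, averaged 2.05 ± 0.439 CPM in exercised and 0.259 ± 0.161 CPM in control larvae. CG16713, a Kunitz-type protease inhibitor, was at 4.68, 6.01 and 2.58 CPM in exercised libraries and 0.0835, 0 and 0.578 CPM in control libraries, 274 counts against 15. CG31821, a serine carboxypeptidase, was at 0.567, 0.611 and 0.181 CPM in exercised libraries against 5.30, 6.30 and 4.09 CPM in control libraries (11.5-fold lower). Hemocyte markers, the 5 listed, summed to 351 to 550 CPM in exercised libraries and 390 to 699 CPM in control libraries, ranges that overlap, and most of each sum was Hml and Pxn. NimC1 was the 1 of the 5 that was called higher by edgeR, at 21.0, 31.3 and 18.8 CPM in exercised libraries against 2.55, 3.71 and 4.36 CPM in control libraries. The others, Hml, Pxn, eater and srp, all had lower means in exercised than in control larvae, but none was called lower by edgeR. Hml averaged 228 CPM in exercised and 322 CPM in control larvae, and Pxn averaged 165 CPM in exercised and 221 CPM in control larvae. The part of hemocytes in these differences was not tested.

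Membrane transporters numbered 3, all higher. CG1698, a nutrient amino acid transporter of the SLC6 family, was at 94.8, 88.0 and 92.1 CPM in exercised libraries against 24.3, 21.1 and 21.2 CPM in control libraries. This 4.13-fold difference had narrow ranges, with SDs of 3.41 CPM in exercised and 1.81 CPM in control larvae. CG15096, of the major facilitator superfamily, was at 110.3, 18.5 and 39.1 CPM in exercised libraries and 9.52, 9.91 and 10.8 CPM in control libraries, a fold of 5.55, and of 2.86 without exercised 1. CG8908, an ABC transporter, was at 3.59, 0.611 and 2.13 CPM in exercised libraries and 0.417, 0.391 and 0.534 CPM in control libraries (4.72-fold, and 3.06-fold without exercised 1).

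Signalling, chaperone and nuclear proteins numbered 3, with 2 higher. CG30054, whose synonym is Galphaq for its likeness to the alpha subunit that couples receptors to phospholipase C, was at 5.57, 4.64 and 5.08 CPM in exercised libraries and 0.250, 0.488 and 0.178 CPM in control libraries (16.7-fold). Reads that fit both it and Galphaq would make its level uncertain. CG7130, a J-domain protein of the co-chaperone family that works with Hsp70, was at 14.9, 9.94 and 12.5 CPM in exercised libraries and 1.63, 2.29 and 1.91 CPM in control libraries (6.40-fold). In CG7130 no library stood apart, while in CG30054 control 2 was 2.28 times the mean of controls 1 and 3, on 20 control counts in all. CG6770, with the synonym p8 after the mammalian stress-induced nuclear protein, was the most abundant member in control larvae, at a mean of 1759 CPM per kilobase. It was at 186, 511 and 323 CPM in exercised libraries against 1361, 1309.5 and 1423 CPM in control libraries. The 4.02-fold difference was just inside the rule: the controls lay close together, while the exercised libraries differed 2.75-fold.

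Proteins with a secreted or cuticle-type domain or listing came to 3 higher and 1 lower. CG3348, with a chitin-binding domain, was at 265, 127 and 191 CPM in exercised libraries against 5.39, 7.08 and 6.54 CPM in control libraries (30.7-fold). CG8100 was at 4.35, 3.31 and 4.40 CPM in exercised libraries and 0.334, 0.0488 and 0.222 CPM in control libraries (19.9-fold, 254 counts against 14). CG14132 was at 273, 82.5 and 140.1 CPM in exercised libraries and 71.8, 15.2 and 35.3 CPM in control libraries, with its 4.05-fold difference just inside the rule, its groups 1.15-fold apart and a fold of 6.55 without control 1. The study lists these genes as putative secreted proteins, a list drawn up on these libraries, and their place in it is no independent evidence. CG8483, of the CAP family of secreted proteins, was at 20.5, 13.3 and 13.0 CPM in exercised libraries against 98.4, 124 and 85.6 CPM in control libraries (6.59-fold lower). The cuticle and epidermis markers (5 of the 6 listed were in the table) summed to 8.88 to 11.8 CPM in exercised libraries and 11.3 to 15.5 CPM in control libraries. Most of each sum was Cpr49Ae, which averaged 5.91 CPM in exercised and 10.4 CPM in control larvae. Cpr47Ef also had a lower mean in exercised larvae, while Acp1, Cpr66Cb and, slightly, TwdlT had a higher one. These genes were all at low CPM, and the amount of cuticle in the libraries was not tested.

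The ecdysteroid kinase-like family, large in flies and named for an enzyme that phosphorylates ecdysteroids in silkworm, had 2 members higher and 1 lower. CG9498 was at 40.7, 19.1 and 18.9 CPM in exercised libraries and 2.96, 4.54 and 4.27 CPM in control libraries (6.68-fold). CG13360 was at 26.4, 17.4 and 17.5 CPM in exercised libraries and 1.71, 1.42 and 9.57 CPM in control libraries, a fold of 4.83 in which control 3 stood apart from the other controls. CG33509 went the other way, at 0.283, 0.713 and 0.272 CPM in exercised libraries against 3.42, 3.71 and 2.36 CPM in control libraries (7.48-fold lower, and 11.4-fold without exercised 2).

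**Figure D2:**
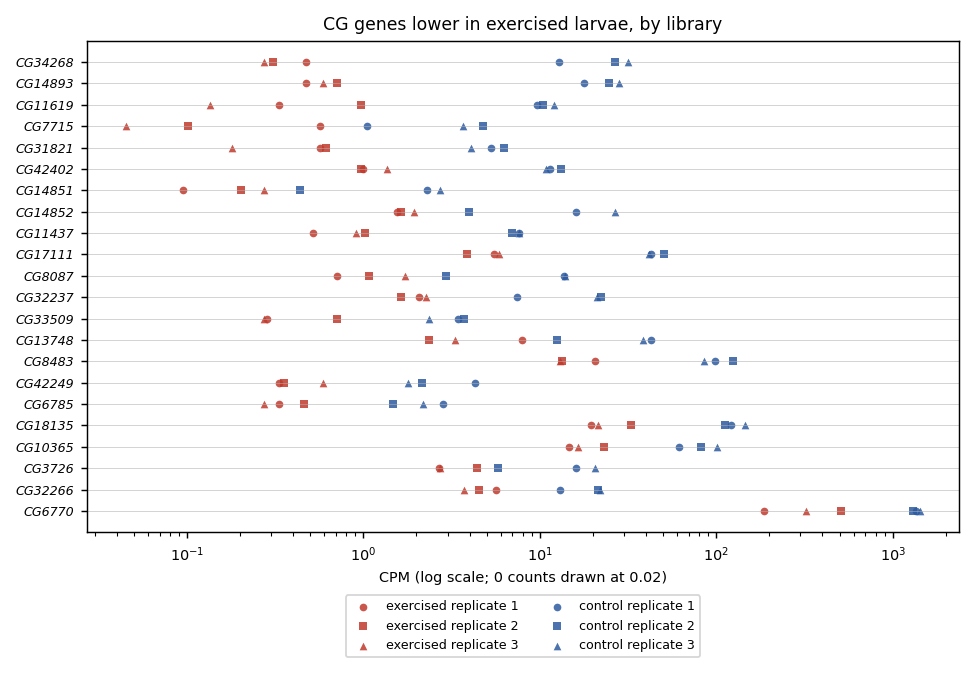
CPM of the 22 lower members in each library, 1 row per gene in order of fold, on a log axis, with exercised libraries in red and control libraries in blue. CG34268 and CG14893 have the widest gap between the colors, and CG6770 is the most abundant, at 186 to 511 CPM in exercised and 1309.5 to 1423 CPM in control libraries.

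The steepest of the lower members have no role given here. CG34268 was at 0.472, 0.306 and 0.272 CPM in exercised libraries against 12.9, 26.8 and 31.8 CPM in control libraries, a 68.1-fold difference (edgeR log2 fold change -6.02). CG14893 was at 0.472, 0.713 and 0.589 CPM in exercised libraries against 17.8, 24.6 and 28.1 CPM in control libraries (39.7-fold lower). CG11619 was at 0.331, 0.968 and 0.136 CPM in exercised libraries against 9.64, 10.5 and 12.0 CPM in control libraries (22.4-fold lower, and 45.9-fold without exercised 2). In these genes the exercised libraries held 22, 37 and 29 counts in all, so the exercised levels rest on few counts, while every control library was at 9.64 CPM or more. CG42402 was at 0.992, 0.968 and 1.36 CPM in exercised libraries against 11.4, 13.2 and 10.8 CPM in control libraries (10.7-fold lower). CG17111 was at 5.53, 3.87 and 5.89 CPM in exercised libraries against 42.8, 50.5 and 41.6 CPM in control libraries (8.83-fold lower). Both had tight ranges in each group.

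In other lower genes 1 control library came close to the exercised range. CG7715 was at 0.567, 0.102 and 0.0453 CPM in exercised libraries and 1.04, 4.78 and 3.65 CPM in control libraries (13.3-fold lower, and 42.9-fold without exercised 1), and control 1 was the low one. CG13748 was at 7.89, 2.34 and 3.31 CPM in exercised libraries and 42.5, 12.5 and 38.2 CPM in control libraries, with control 2 the low one (6.89-fold lower, and 11.01-fold without exercised 1). CG3726 was at 2.69, 4.38 and 2.72 CPM in exercised libraries and 15.9, 5.81 and 20.6 CPM in control libraries, with control 2 again the low one (4.32-fold lower). The others were CG32237 (8.51-fold lower), CG42249 (6.45-fold lower) and CG32266 (4.06-fold lower).

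**Figure D3:**
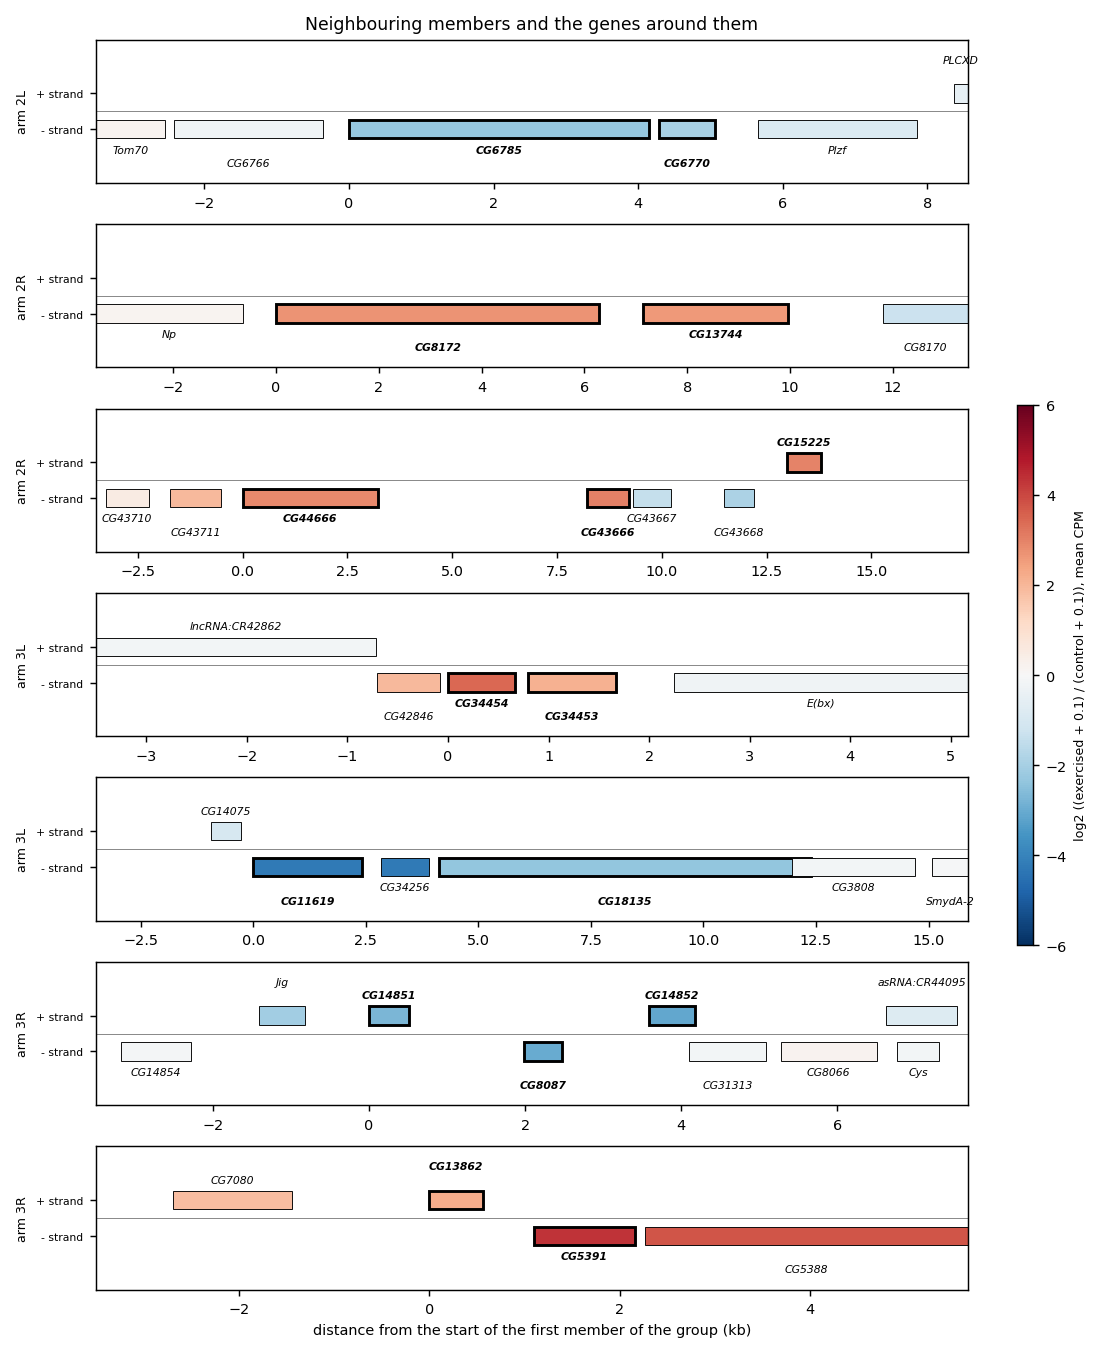
The 7 groups of members lying within 20 kb of each other, drawn to scale by distance from the start of the first member, with + strand genes above and - strand genes below the line. Thick outlines and bold names are members, color is the log2 ratio of mean CPM (exercised over control, 0.1 added to each), and genes under 20 counts over the 6 libraries are not drawn. Members of a group lie on the same side of the color scale, while CG43667 and CG43668 between members of the third group have the opposite one.

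Within 20 kb of another member lay 16 of the 81 members (19.8%), in 7 groups, and none of the groups mixed directions. Of the 2687 CG genes, 82.7% lay within 20 kb of another of them, but that set is far larger and so denser. With 59 of the 81 members higher, neighbours of the same direction would often occur anyway, and this was not tested. Adjacent genes can share regulatory DNA, and closely related genes in a row can also share reads that the counting could not place. On arm 2L, CG6785 (12041054-12045200) ended 142 bases from CG6770 (12045343-12046118), both lower. CG6785 was at 0.331, 0.459 and 0.272 CPM in exercised libraries against 2.84, 1.46 and 2.18 CPM in control libraries. On arm 2R the proteases CG8172 (9007234-9013526) and CG13744 (9014368-9017195) were 841 bases apart, both higher and on the same strand. All coordinates are those of release 6 of the genome.

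On arm 2R, CG44666, CG43666 and CG15225 lay between 20779992 and 20793795 and were all higher. CG15225, the most abundant, was at 22.5, 19.8 and 16.8 CPM in exercised libraries against 3.76, 2.44 and 0.934 CPM in control libraries. CG43666 averaged 7.99 ± 1.47 CPM in exercised and 0.901 ± 0.286 CPM in control larvae, and CG44666 averaged 2.12 ± 0.287 CPM in exercised and 0.206 ± 0.0767 CPM in control larvae. The genes between them did not follow. CG43667, 77 bases from CG43666, fell, with -1.53 on the log2 scale (SE 0.33, adjusted p = 0.0179), and CG43668 fell as well, with -1.89 (SE 0.46, adjusted p = 0.0312). Both calls were lost without control 2 and without exercised 3, the call of CG43667 also without exercised 1 and with the replicate number as a block, and that of CG43668 also without exercised 2 and with no filter on low counts (adjusted p up to 0.0793 for CG43667 and 0.122 for CG43668).

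On arm 3L, CG34454 (231681-232350) and CG34453 (232480-233351) were 129 bases apart, both higher. CG34454 was at 167, 98.6 and 145 CPM in exercised libraries against 14.9, 12.2 and 10.9 CPM in control libraries (10.8-fold), and CG34453 was at 4.87, 2.50 and 4.76 CPM in exercised libraries against 1.00, 0.586 and 0.934 CPM in control libraries (4.81-fold). CG42846, 76 bases from CG34454 and not a member, was at 15.3, 10.3 and 12.8 CPM in exercised libraries and 2.00, 2.64 and 5.03 CPM in control libraries. It rose by 2.03 on the log2 scale (SE 0.36, adjusted p = 0.0121) and stayed called under all 11 alternatives (adjusted p up to 0.0489). At 3.98-fold it lay just outside the rule's fold minimum, which used this same contrast, so little is read from the call. On the same arm, CG11619 (18985905-18988323) and CG18135 (18990026-18998283) were both lower. CG34256 lies between them and was left out of the members only for its 3 counts in exercised against 186 in control libraries, a ratio of 0.0172 (0.00351 to 0.0510). Since it met the rule's other conditions on this same contrast, its difference is a description too, with no test.

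On arm 3R, CG14851, CG8087 and CG14852 lay between 14562340 and 14566513 and were all lower. CG14852 was at 1.56, 1.63 and 1.95 CPM in exercised libraries against 16.0, 3.95 and 26.7 CPM in control libraries (9.08-fold lower, and 5.82-fold without control 3). Likewise CG8087 was at 0.709, 1.07 and 1.72 CPM in exercised libraries against 13.7, 2.93 and 14.0 CPM in control libraries. CG14851 had 12 counts in exercised against 125 in control libraries and was too sparse for the fit. In all of them control 2 was the lowest control, and the exercised libraries lay below it. Also on 3R, CG13862 (22331991-22332559) and CG5391 (22333088-22334150) were 528 bases apart on opposite strands, both higher. CG13862 was at 7.04, 6.11 and 5.76 CPM in exercised libraries against 1.34, 1.27 and 1.20 CPM in control libraries (4.97-fold). On the other side, 106 bases from CG5391, CG5388 had 90 counts in exercised libraries and 1 in control libraries, a ratio of 95.8 (16.8 to 3826), and rose by the edgeR test (adjusted p = 0.00637, at most 0.0316 under all 11 alternatives).

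The nearest tested gene on each side of a member was taken with the members themselves passed over, so the rule's values shaped this set. The shares over all tested genes, given beside it, still include the members. Beside higher members lay 110 such genes, of which 20 were higher (18.2%, against 10.3% of all tested genes) and 10 lower (9.09%, against 8.52%). Beside lower members lay 38, of which 1 was higher (2.63%) and 6 were lower (15.8%). Together 148 flanking genes held 21 higher and 16 lower, 25.0% against 18.8%. The count depended on the libraries: it was 12 higher and 6 lower without exercised 3, 13 higher and 7 lower without control 2, and 10 lower without control 1. Whether these shares differ from the background was not tested.

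Among close neighbours the chitin-binding gene CG3348 had CG3339 2076 bases away, at 1.32, 0.713 and 2.63 CPM in exercised libraries and 0, 0.195 and 0.133 CPM in control libraries (log2 fold change 3.87, SE 0.82, adjusted p = 0.0163, but 0.0651 without exercised 3). CG13042, 640 bases from CG13063, had 47 counts in exercised and 1 in control libraries (95% interval of the ratio 8.55 to 2018, adjusted p = 0.00369). CG30458, 1083 bases from CG30457, was at 4.44, 4.54 and 3.40 CPM in exercised libraries and 0.877, 1.61 and 1.29 CPM in control libraries (log2 fold change 1.76, SE 0.26, adjusted p = 0.00410). The noncoding lncRNA:CR46234, 634 bases from the transporter CG15096, rose by 2.87 on the log2 scale (SE 0.39, adjusted p = 0.00264). The calls of CG13042, CG30458 and lncRNA:CR46234 held under all 11 alternatives. Beside lower members, CG11438, 785 bases from the lipid phosphate phosphatase CG11437, was at 10.8, 12.3 and 11.8 CPM in exercised libraries and 46.6, 46.3 and 36.1 CPM in control libraries. It fell, with -1.84 on the log2 scale (SE 0.11, adjusted p = 0.000113), with no overlap and under all 11 alternatives.

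Smaller changes within 5 kb were those of the serpin gene Spn42Da beside CG9447 (log2 fold change 0.85, SE 0.10, adjusted p = 0.00184) and CG18596 beside CG7069 (0.71, SE 0.12, adjusted p = 0.00646), which held under all 11 alternatives. Listericin, an antibacterial protein gene beside CG13215 (1.33, SE 0.31, adjusted p = 0.0309), and CG14143 beside CG32074 (1.29, SE 0.32, adjusted p = 0.0336) each lost the call under 6 of 11. Cow, whose product binds the ligand Wingless, beside CG17111 fell, with -1.02 (SE 0.25, adjusted p = 0.0293) and lost the call under 4 of 11. Others passed the test in their member's direction with log2 fold changes of 0.31 (CG10433), 0.31 (wge), 0.35 (coro) and 0.40 (CG9812), and each lost the call under at least 5 of 11. In this paragraph and the one before, genes were picked for changing with their member. Others within 5 kb were called the opposite way by edgeR. Beside higher members, CG15643 fell at CG7860 (-0.76, adjusted p = 0.0134), CG8170 at CG13744 (-1.27, adjusted p = 0.0285), CG42788 at CG6912 (-0.52, adjusted p = 0.00481) and CG14105 at CG10713 (-1.17, adjusted p = 0.0173). CG10232 rose (0.96, adjusted p = 0.0299) beside the lower CG10365.

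Tested genes that overlap a member numbered 19. By edgeR 5 were higher (26.3%, against 10.3% of all tested genes) and none lower (against 8.52%). These are few genes, and whether their shares differ from the background was not tested. No source used here states whether the counting used strand, so the reads of overlapping genes cannot be told apart. The antisense RNA asRNA:CR45600, which overlaps an exon of CG6912, had 97 counts in exercised against 2 in control libraries, and lncRNA:CR43418 over an exon of CG15096 rose by 3.72 on the log2 scale (SE 0.59, adjusted p = 0.00507). CG6972, which overlaps an exon of CG13842, rose by 1.16 (SE 0.16, adjusted p = 0.00346). Root, a gene of the ciliary rootlet that overlaps CG13607, rose by 1.86 (SE 0.47, adjusted p = 0.0387) but lost the call under 6 of 11 alternatives. CG32264 rose by 0.86 (SE 0.14, adjusted p = 0.00538) although the member it overlaps, CG32266, was lower.

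**Figure D4:**
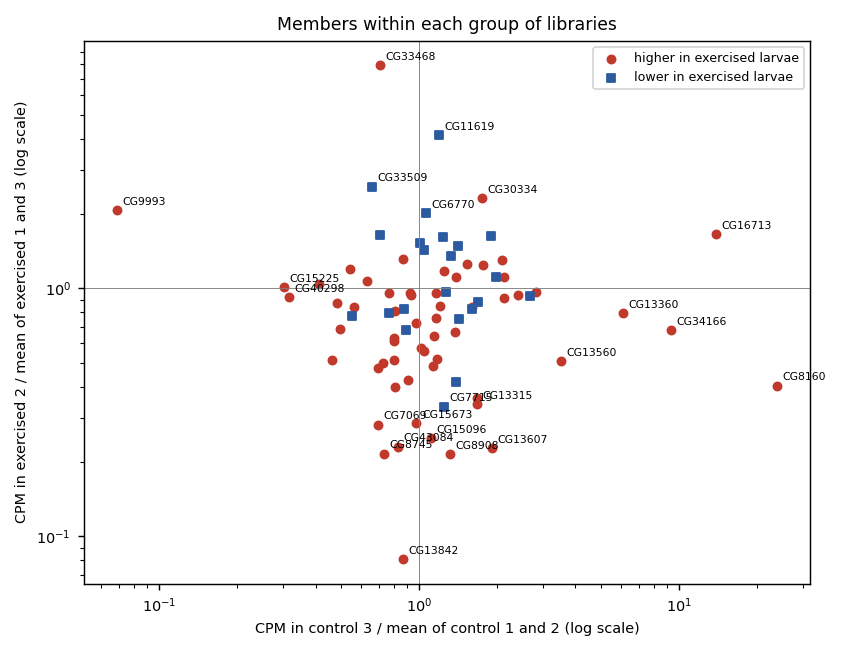
For each member, CPM in exercised 2 over the mean of exercised 1 and 3 (vertical) against CPM in control 3 over the mean of control 1 and 2 (horizontal), both on log axes, with higher members as red circles and lower members as blue squares. Grey lines mark a ratio of 1. CG8160, CG16713, CG34166 and CG13360 lie far to the right, and CG13842, CG8908, CG8745, CG13607, CG43084 and CG15096 lie low.

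The members varied between replicates more than was usual among all CG genes above the same minimum level, a set not matched for abundance, and this was not tested. The highest exercised library exceeded the lowest by a median of 1.801-fold in the higher members, against 1.27-fold in the 2687 CG genes (the members included), and by at least 2-fold in 27 of 59 (45.8%, against 8.68%). In control libraries the median was 2.01-fold, against 1.23-fold. The members are at low CPM in the lower group, where counting error is larger, and this was not separated here.

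The libraries differed in order. Exercised 2 was the lowest exercised library in 35 of the 59 higher members (59.3%, against 32.0% of the 2687 genes), and exercised 1 was the highest in 40 (67.8%, against 38.6%). Exercised 2 was at or below 0.5 times the mean of exercised 1 and 3 in 15 higher members (25.4%, against 1.82%), and lowest by this ratio were CG13842 (0.0810), CG8908 (0.214), CG8745 (0.215) and CG13607 (0.227). The white gene was likewise lowest in exercised 2, at 0.381 of the mean of exercised 1 and 3. The part of the libraries' makeup in this order was not tested. Leaving out 1 library moved the fold of 24 of the 81 members by over 1.5 times, most often exercised 1 (9 members), control 3 (7) or control 1 (6). Among them were CG15673 (17.6, and 11.5 without exercised 1), CG13842 (14.9, and 8.13 without exercised 1), CG13315 (4.99, and 2.71 without exercised 1), CG43084 (9.39, and 19.1 without control 1) and CG6912 (12.3, and 19.8 without control 3).

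Control 3, whose summed fat body markers were at the exercised level, was at least 2-fold above the mean of controls 1 and 2 in 10 of the 59 higher members (16.9%, against 2.79%). In CG8160, control 3 was 23.9-fold above them, at 3.34 CPM against 0.0835 and 0.195 CPM, and the fold of exercised over control was 6.28 with all controls, 54.3 without control 3, 2.27 over control 3 alone and 3.86 without exercised 1, which is under the 4-fold minimum. For CG16713 these folds were 20.1, 106 and 7.65, for CG34166 they were 7.06, 26.7 and 2.86, and for CG13360 they were 4.83, 13.1 and 2.14. In the remaining 55 higher members control 3 was less than 4-fold above controls 1 and 2. Among them CG13560 stayed 30.6-fold higher in exercised libraries over control 3 alone. Whether RNA of fat body accounts for the levels of these genes was not tested.

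By position and structure, 24 of the 81 members lay on arm 2R (29.6%, against 19.1% of the 2687 CG genes), 22 on 3L, 21 on 3R, 9 on 2L and 5 on X (6.17%, against 17.4%). Of the higher members 23 were on 2R (39.0%), and of the lower members 9 were on 3R (40.9%) and 1 on 2R. The members were short genes: their exons covered a median of 1233 bases, against 1758 in the 2687 CG genes and 2168 in all tested genes, and in 32 (39.5%, against 19.2%) they covered under 1000 bases. A lone exon block was annotated in 21 (25.9%, against 12.0%), and a lone transcript in 55 (67.9%, against 45.3%). All 81 were annotated as protein coding. These shares are descriptions, and none was tested.

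The rule's edge of 4-fold ran through a continuum. The members just inside it were CG14132 (4.05) and CG33110 (4.11) on the higher side, and CG6770 (4.02) and CG32266 (4.06) on the lower side. Just outside were CG42846 (3.98) and CG13461 (3.97) on the higher side, and CG3635 (3.91) and CG43668 (3.84) on the lower side.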

How the data were processed

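The deposited table holds raw counts per gene. The authors checked the reads (single-end, from a HiSeq instrument) with FastQC, aligned them to release 6 with STAR and counted them with featureCounts. The sources used here give no versions, strand setting or treatment of multiply placed reads. Within each group, no library was a duplicate of another. Symbols and positions came from the Ensembl annotation of release 6 (17200 identifiers matched, and 277 did not), and synonyms from RefSeq. CPM uses the column total, without TMM scaling. The counts of all 17477 genes went into edgeR 4.0.16 in R 4.3.3 (filterByExpr, TMM, glmQLFit with robust=TRUE, glmQLFTest, condition as the only term), with a Benjamini-Hochberg adjusted p under 0.05 as the call. On simulated data this fit recovered 100% of genes changed 4-fold and 83% of those changed 2-fold, and called 10 of 8927 unchanged genes. The simulation gave every gene the same dispersion and let libraries of a group differ only in depth. Its rates therefore need not hold for the real libraries, which varied more. The 3 replicates of a group were independent biological samples.

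The members and lists were chosen with earlier results of these data known. Named were, per direction, the 10 largest ratios and the 6 highest mean levels, the genes beside the threshold, members within 20 kb of another, the 3 widest spreads per group, and neighbours within 5 kb called in the same direction. Other genes were chosen after their values were seen, and the role groups after the members were known. A gene that meets the rule's symbol condition is not reported here. Marker lists not given in the report were summed too. For trachea the sums were 3141 to 4297 CPM in exercised and 2737 to 2988 CPM in control libraries. Nearly all of this was verm and serp. The other trachea marker, trh, went the other way, averaging 11.5 CPM in exercised and 13.3 CPM in control larvae. Testis and germ line markers summed to 43.6 to 51.9 CPM in exercised and 46.8 to 51.9 CPM in control libraries. Most of each sum was bol, which averaged 45.8 CPM in exercised and 46.2 CPM in control larvae. betaTub85D was at 3.52 CPM in control 3 and at most 0.0510 CPM in any other library. The amount of germ line in the libraries was not tested. Neuron and glia markers summed to 32.5 to 44.2 CPM in exercised and 41.7 to 50.1 CPM in control libraries. Salivary gland markers summed to 0.866 to 9.74 CPM in exercised and 0.976 to 1.96 CPM in control libraries. Alternatives were DESeq2 1.42.0, RLE and upper-quartile scaling, no filter on low counts, a replicate block, each library left out, and other limits in the rule. Intervals are exact binomial and cover counting error only.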

Additional observations from a re-analysis of the deposited data

How the results depend on the processing

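Of 858 refitted log2 fold changes of the 78 members that could be fitted, none reversed, 841 moved by less than the spread between replicates and 17 moved by more. Among these, leaving out control 3 raised CG8160 to 5.84 and CG16713 to 6.53, leaving out control 1 raised CG9993 to 4.47, and leaving out exercised 1 lowered CG15096 to 1.57. With a library left out, the rule kept between 78 members (without exercised 3, of which 72 were among the 81) and 107 (without control 3, of which 68 were). On TMM-scaled totals it kept 84, of which 79 were. It kept 126 and 62 at fold minimums of 3 and 5, 108 and 64 at mean CPM minimums of 0.5 and 2, and 87 with no minimum on counts. Its higher members numbered 56 to 84 and its lower members 22 to 30 with a library left out, and a fold minimum of 3 gave 42 lower members. Members called by edgeR stayed within 1.5 times, at 42 to 52 higher and 15 to 20 lower with a library left out. Over all genes, leaving out a library gave 469 to 934 higher and 358 to 847 lower, and beside members 12 to 19 higher and 6 to 17 lower. The same-numbered libraries did not deviate together (r = -0.22, 0.0029 and -0.24), while control 1 and exercised 3 had r = 0.29. This check cannot tell whether same-numbered libraries were handled together, since the 3 deviations within a group depend on each other. With the replicate number as a block, 599 genes were higher and 465 lower, with 13 higher and 8 lower beside members, while 48 members were called higher and 17 lower. Leaving out a library shrinks the design, and the cause of the other moves was not tested. The share of members with a hydrophobic N-terminal stretch, promoter motifs and sequence relatives were not run, since protein and promoter sequences were not used here.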
